A study of Homo sapiens with 3 samples.

Results

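Edited clusters in the genes of the cytosolic ribosomal proteins were examined in HEK293T cells that expressed RBFOX2 fused to the cytidine deaminase APOBEC1. Genes were chosen by symbol alone (RPL or RPS with a number, the stalk proteins RPLP0 to RPLP2, and RPSA), and symbols of pseudogenes and of mitochondrial ribosomal proteins did not qualify. A cluster counted when any of the gene names listed for it matched. The choice gave 358 of 40843 clusters and 63 of 9904 gene names. In replicates 1, 2 and 3 it gave 123 of 14295, 137 of 15181 and 98 of 11367 clusters.

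All 3 samples belong to a single group, RBFOX2-APOBEC1, with expression induced by doxycycline for 72 h, and no library without the fusion was analysed here. The labels call the cells HEK293XT, a human embryonic kidney line, give the genotype as WT, and name transient transfection, while their growth protocol describes stable lines. Whether a line was a single clone is not given in the sources used here. In STAMP, the method used here, the deaminase turns C into U near the places where its RNA-binding partner sits, and FLARE merges windows with more edits than the local background into clusters. The tables hold clusters that passed this filter and no expression values, so the cell line was not checked against marker genes. RBFOX2 itself, the expressed fusion partner, held the deepest cluster of replicate 3, with a mean depth of 7169 reads.

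Cytosolic ribosomes consist of a large and a small subunit, each built from ribosomal RNA and many small proteins that are encoded by separate genes. The mRNAs of these proteins are among the most abundant of any dividing cell, are mostly short, and start with a terminal oligopyrimidine (TOP) tract through which mTOR signalling controls their translation. Many of the genes carry small nucleolar RNAs in their introns. RBFOX2 is best known as a splicing regulator that binds GCAUG in introns and in untranslated ends of mRNAs. Since no genome of the build was used, motifs and the surrounding sequence were not analysed here.

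Ribosomal protein genes held a larger share of reads than of clusters. They held 0.860% of the clusters in replicate 1 (Wilson 95% interval, 0.722 to 1.03), 0.902% in replicate 2 (0.764 to 1.07) and 0.862% in replicate 3 (0.708 to 1.05), a mean of 0.875% ± 0.0238 (SD, n = 3). Of the reads deposited over clusters they held 16.9%, 17.5% and 16.8%. Some of these clusters have a deposited depth far above the coverage of their C bases, as described with the introns, and without clusters at 10 times or more the share was 10.0%, 13.3% and 14.5% (an alternative added after seeing the data). They held, of the covered C bases 8.41%, 10.7% and 12.0%, and of the edited bases 3.77%, 4.93% and 5.67% (mean 4.79% ± 0.959). The share of edited bases was thus below the share of covered C bases in all 3 replicates. The intervals cover counting error only.

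The edit fraction of a cluster divides its edited C bases by every C base that a read covered there. Summed over clusters, 3813 of 906370 covered C bases were edited in ribosomal protein genes in replicate 1, 5502 of 1274608 in replicate 2 and 4373 of 932084 in replicate 3. The pooled edit fraction was 0.421%, 0.432% and 0.469% (mean 0.441% ± 0.0254), against 0.986%, 0.994% and 1.07% (mean 1.02% ± 0.0456) in all other clusters. The ranges do not overlap. Coverage went with this difference. The median coverage per C base of exonic clusters, that is, the covered C bases divided by how many C bases the stretch holds, was 37.7, 136 and 227 reads in ribosomal protein genes and 23.3, 22.6 and 19.7 reads elsewhere. Medians at matched coverage are given with the comparison by coverage class.

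Of the 63 genes, 47, 50 and 42 had a cluster in replicates 1, 2 and 3, and 31 had a cluster in all 3, 14 in 2 and 18 in 1. The 31 genes are 49.2% of the 63, beside 37.9% of all 9904 genes with a cluster. Genes found in all replicates had deep clusters. The highest coverage per C base that a gene reached was 1931 reads at the median of the 31 genes, 31.1 reads in the 14 genes found in 2 replicates and 13.4 reads in the 18 found in 1. Only 2 of the 31 genes stayed under 50 reads in every cluster, beside 8 of the 14 and 13 of the 18. The highest value was taken over all replicates, so genes found in more replicates generally had more clusters to draw it from.

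Overlapping clusters on the same strand merged into 236 loci, of which 38 (16.1%) were found in all replicates, 41 in 2 and 157 in 1, beside 4.77% of all 33244 loci found in all replicates. The 38 loci were all exonic and lay in 21 genes. RPL30 held 4 of them, and RPL15, RPL23, RPL36A, RPS25 and RPS4X held 3 each. A further 4 genes, RPL34, RPL7L1 and RPS27A among them, held 2 each, and the other 11 genes held 1 each.

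Edited bases were concentrated in few genes, as the plot of edited bases by gene shows. The 5 leading genes held 61.9%, 58.8% and 64.8% of all edited bases of the group, and 25 genes, those with the most edited bases among the 31, held 96.6% ± 1.07. The pooled edit fraction of the 31 genes ran from 0.253% in RPS15A to 3.10% in RPL32, with a median of 0.490%. It was narrower where coverage was high: 16 genes reached at least 500 reads per C base in every replicate, and their fractions ran from 0.253% to 1.43% with a median of 0.363%.

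**Figure D1:**
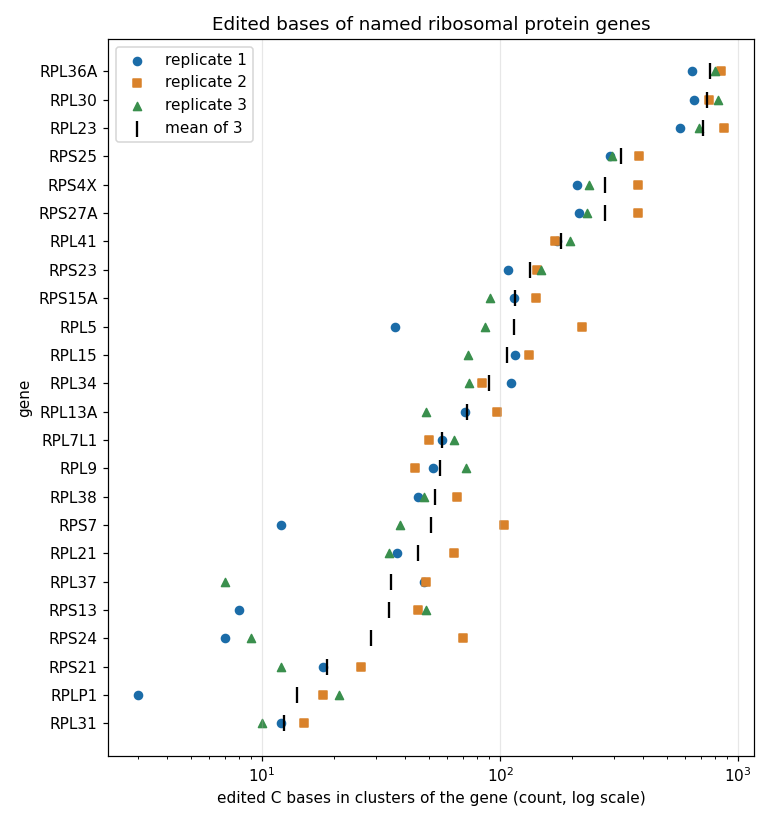
Edited C bases (count, log scale) in the clusters of ribosomal protein genes with many edited bases and a cluster in every replicate, with a symbol for each of 3 replicates and a bar for their mean. RPL36A, RPL30 and RPL23 lie at 572 or more in every replicate, while RPS7, RPS24 and RPL5 spread widely between replicates.

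Among the large subunit genes, 36 names had a cluster, 20 of them in all replicates. Their clusters numbered 83, 85 and 59 and held 2707, 3638 and 3097 edited bases at a pooled edit fraction of 0.446%, 0.451% and 0.500% (mean 0.466% ± 0.0301). The small subunit had 27 names with a cluster, 11 of them in all replicates, with 40, 52 and 39 clusters and 1106, 1864 and 1276 edited bases. Its pooled edit fraction of 0.370%, 0.399% and 0.408% (mean 0.392% ± 0.0198) was below that of the large subunit in each replicate. The lowest value of the large subunit lay above the highest of the small subunit, but this separation rested on RPL23. Without it, chosen after its values were seen, the large subunit had 0.404%, 0.403% and 0.461%, a range that overlaps that of the small subunit. Within each replicate the large subunit still had the higher value. No test was run on this difference.

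RPL36A, a large subunit protein near the tRNA exit site, held the most edited bases, 639, 845 and 799 in replicates 1, 2 and 3, at a pooled edit fraction of 0.429% ± 0.0429. Most lay at a pair of exonic loci, X:100646433-100646537 and X:100650307-100650396 on the plus strand (all positions are those of hg19, and the named loci are all annotated as exonic). The first had 287, 370 and 392 edited bases and an edit fraction of 0.380%, 0.420% and 0.480%. The second had 339, 454 and 392 edited bases and 0.378%, 0.453% and 0.443%. It was also the deepest of the named loci, with 5984, 6688 and 5904 reads per C base. At X:100650742-100650786 a further locus had 0.429%, 0.790% and 0.724% on 10, 19 and 15 edited bases. The clusters also carry the name of the readthrough transcript of RPL36A and HNRNPH2, so their reads cannot be assigned to either with certainty.

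RPL30, whose yeast counterpart binds its own pre-mRNA, had 653, 751 and 819 edited bases at 0.490% ± 0.0656. At its more edited locus 330 of 71084, 387 of 73606 and 421 of 61394 covered C bases were edited, or 0.464%, 0.526% and 0.686%. The other named locus had 0.446%, 0.401% and 0.525%. In both, replicate 3 was the highest. Of the clusters of RPL30, 7 had a deposited depth of at least 10 times their coverage per C base, a feature described with the introns.

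RPL23, a large subunit protein that can also bind MDM2, had 572, 873 and 685 edited bases, and its pooled edit fraction of 0.726%, 0.721% and 0.711% varied least of the 3 leading genes (mean 0.719% ± 0.00749). At 17:37008904-37008963 on the minus strand 387, 506 and 397 bases were edited (0.755%, 0.752% and 0.905%). At 17:37009249-37009308 there were 154, 257 and 188 (0.776%, 1.22% and 1.02%). In every replicate both lay above the named loci of RPL30 and the 2 main loci of RPL36A in edit fraction, and the first of them had 4662, 4808 and 3987 reads per C base.

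The other large subunit genes held fewer edits. RPL41, the smallest ribosomal protein, had 173, 170 and 196 edited bases, nearly all at 12:56511372-56511431 on the plus strand, where 0.261%, 0.255% and 0.316% of covered C bases were edited. RPL15 had 115, 132 and 73, and at 3:23960992-23961096 on the plus strand its edit fraction was 0.943%, 0.655% and 0.775%. RPL5, which binds MDM2 together with RPL11, had 36, 221 and 86, in the same order of replicates as the highest coverage of its clusters, which was 911, 3490 and 2951 reads per C base. RPL11 itself had 4, 2 and 2 edited bases. RPL34 had 111, 84 and 74, RPL13A 71, 97 and 49, RPL9 52, 44 and 72, and RPL38 45, 66 and 48. Their pooled edit fractions were 0.276% ± 0.0397, 0.381% ± 0.0312, 0.299% ± 0.00716 and 0.388% ± 0.0674. RPL21 followed with 37, 64 and 34 edited bases, RPL31 with 12, 15 and 10, and RPLP1, an acidic protein of the ribosomal stalk, with 3, 18 and 21. RPL37 had 13 loci, none of them found in all replicates, with 48, 49 and 7 edited bases and a pooled edit fraction of 2.80% ± 1.24, at no more than 60.8 reads per C base. RPL13 was named for a locus alone, 16:89629631-89629705 on the plus strand, with 5, 13 and 6 edited bases at 0.644%, 0.638% and 0.746%.

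In the small subunit, RPS25, which some viral RNAs need to start translation, had 288, 384 and 296 edited bases, the most of the subunit. Its locus at 11:118888162-118888221 on the minus strand had 138, 211 and 145 edited bases (0.416%, 0.578% and 0.501%), and 11:118886423-118886468 had 37, 23 and 33 (0.870%, 0.513% and 0.880%). RPS27A, made as a fusion with ubiquitin, had 215, 378 and 232, mostly at 2:55462625-55462759 on the plus strand (0.304%, 0.465% and 0.366%). RPS4X, encoded on the X chromosome, had 210, 380 and 236, and its minus-strand locus at X:71495485-71495529 had the lowest edit fraction of the named loci, 0.204%, 0.247% and 0.241%. RPS15A followed with 114, 142 and 91.

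RPS23, a protein of the decoding centre, held the locus with the highest edit fraction among the deep loci of the group. At 5:81573644-81573688 on the minus strand, a stretch with 6 C bases, 83 of 3698, 88 of 3937 and 101 of 3782 covered C bases were edited, or 2.24%, 2.24% and 2.67% (mean 2.38% ± 0.249). No other named locus reached its lowest value in any replicate, the next being RPL7L1 with 1.08%, 1.33% and 0.962%. A share of 9.79% ± 0.811 of the reads at the RPS23 locus was deposited as edited. The counts of edited reads, 90, 91 and 101, were as large as or larger than those of edited bases, and the reason was not tested. Over the whole gene RPS23 had 108, 143 and 148 edited bases and a pooled edit fraction of 2.09%, 0.911% and 1.29%.

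The remaining small subunit genes had lower or less even counts. RPS7 had 12, 104 and 38 edited bases, RPS24 7, 70 and 9, and RPS13 8, 45 and 49, and in RPS7 and RPS24 the highest coverage of a cluster came in the same order of replicates (for RPS24, 9.4, 2648 and 14.5 reads per C base). RPS21 had a single locus, in all replicates, with 18, 26 and 12 edited bases. RPS27L, a paralog of RPS27, had no cluster in replicate 1 and 25 and 22 edited bases in replicates 2 and 3.

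**Figure D2:**
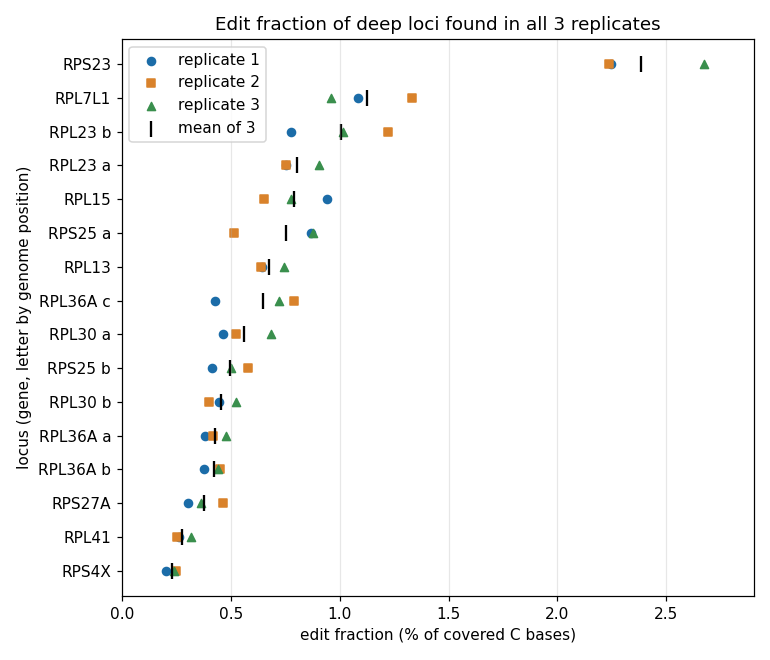
Edit fraction (percent of covered C bases) at the named loci, which were found in all replicates at a mean depth of at least 50, with a symbol for each of 3 replicates and a bar for their mean. The RPS23 locus lies at 2.24% or above in each replicate, and all other loci shown but that of RPL7L1 have means between 0.230% and 1.01%.

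Of the paralogs of ribosomal protein genes, RPL7L1 stood out by its number of clusters, 8, 8 and 7, at 16 loci with 57, 50 and 64 edited bases and a pooled edit fraction of 0.839% ± 0.235. Its deep locus at 6:42857474-42857533 on the plus strand rested on 3, 9 and 3 edited bases. RPL26L1 had 7 edited bases in replicate 3 alone, RPL39L 5 in replicate 2 alone, and RPL22L1 1 in replicate 1 alone. The muscle paralog RPL3L and the testis paralog RPL10L had no cluster.

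The table of RefSeq genes of assembly GRCh38.p14 lists 84 genes whose symbols fit the choice, and 61 of them (72.6%) had a cluster, 35 of 52 in the large subunit and 26 of 32 in the small, beside 39.7% of all 20052 protein-coding genes of the table. The other 23 included RPL10, RPL10L, RPL19, RPL24, RPL27, RPL29, RPL35, RPL35A, RPL36, RPL39, RPL3L, RPL4, RPL6, RPL7A, RPL8, RPLP2, RPS14, RPS18, RPS19, RPS2 and RPS26. Since windows that did not pass are not in the tables, genes without editing, with weaker editing and without coverage cannot be told apart among these. Of the names in the tables, 2 are not in the RefSeq list, RPL12L3 among them.

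Intronic clusters numbered 11, 14 and 6 in replicates 1, 2 and 3. They were 8.94% (Wilson 95% interval, 5.07 to 15.3), 10.2% (6.19 to 16.4) and 6.12% (2.84 to 12.7) of the clusters of the group, and 2.12%, 2.27% and 1.69% of other clusters. The annotation was that of the ribosomal protein gene in the group, but that of the first listed name in other clusters, so the shares are not strictly alike. None of the 31 was found in all replicates, beside 8.72% ± 2.95 of other intronic clusters. They lay in 18 genes, among them RPL5, RPL7, RPL10A, RPL11, RPL26, RPL30, RPL32, RPL34, RPL37, RPL41, RPLP0, RPS3A, RPS6, RPS10, RPS12, RPS24 and RPS27. The 31 clusters fell at 29 loci, of which 2 were found in 2 replicates, and 20 clusters had 1 edited read. Their median edit fraction of 3.69% ± 0.894 (SD, n = 3) differed from that of other intronic clusters, 3.73% ± 0.208, by less than the spread between replicates. Coverage per C base was low in both, at 11.3 ± 6.80 and 7.58 ± 0.447 reads. The deposited mean depth was not: it was 2873 ± 925 reads in the intronic clusters of ribosomal protein genes and 21.5 ± 4.02 reads in other intronic clusters.

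An intronic cluster of RPL32, encoding a large subunit protein, at 3:12877723-12877767 shows the gap between these measures. It had a mean depth of 7066 reads in replicate 1, while its 11 C bases were covered 122 times in all, or 11.1 reads per C base, and 2 of these were edited. The gap was also present in clusters annotated as exonic. The deepest clusters of replicates 1 and 2 belonged to RPL37A (8012 reads) and RPS27 (8001 reads), with a coverage of 13.5 and 15.8 reads per C base. Whether the deposited depth counts reads that span a cluster by splicing was not tested.

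A deposited depth of at least 10 times the coverage per C base occurred in 32, 29 and 14 clusters of ribosomal protein genes, or 26.0%, 21.2% and 14.3%, and in 1.05% ± 0.237 of other clusters. These 75 clusters came from 32 genes, 29 were intronic and 46 exonic, and 45 had 1 edited read. None was found in all replicates. Since the choice divides by coverage, low coverage per C base is built into it. Among exonic clusters of other genes under 10 reads per C base, 1.38% ± 0.699 were found in all replicates, at a median edit fraction of 4.94%. The 75 clusters had a median edit fraction of 3.66% ± 0.203 at a median coverage of 8.80 ± 0.157 reads per C base. Together they held 88, 85 and 40 edited bases. The remaining 91, 108 and 84 clusters held 3725, 5417 and 4333. These had a median edit fraction of 0.683% ± 0.158 at 265 ± 104 reads per C base, and 37, 37 and 38 of them were found in all replicates. The plot of depth against coverage shows both sets.

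**Figure D3:**
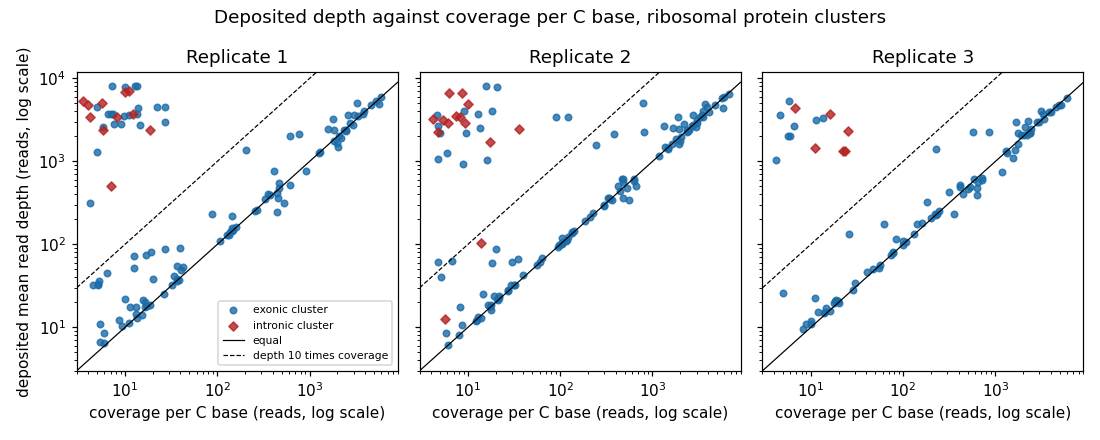
Deposited mean read depth (reads, log scale) against coverage per C base (reads, log scale) for each cluster of a ribosomal protein gene, in a panel for each of 3 replicates, with exonic clusters as blue circles and intronic clusters as red diamonds. The solid line marks equal values and the dashed line a depth of 10 times the coverage, above which 32, 29 and 14 clusters lie.

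Many clusters carried a further gene name. Of the 358 clusters, 87 were listed under a second name and 58 under the name of a small nucleolar RNA, which is encoded in a host gene, and in 31 the ribosomal protein gene was not the first name. The intronic clusters of RPS10 were listed with NUDT3, those of RPL26 with KRBA2, and clusters of RPL17 with the readthrough gene RPL17-C18orf32. Assignment to the ribosomal protein gene is uncertain in such clusters.

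A larger share of the clusters of ribosomal protein genes than of other clusters was found again in the other replicates. A cluster counted as found in all replicates when it overlapped a cluster on the same strand in both others by at least 1 base. This held for 37, 37 and 38 clusters, or 30.1% (Wilson 95% interval, 22.7 to 38.7), 27.0% (20.3 to 35.0) and 38.8% (29.7 to 48.7), with a mean of 32.0% ± 6.10. Among other clusters it held for 10.4%, 9.70% and 12.9% (mean 11.0% ± 1.67). The groups do not overlap, and they differ in coverage as described.

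When exonic clusters were weighted to the same classes of deposited depth, the order turned. The share found in all replicates was then 33.0%, 30.1% and 41.3% in ribosomal protein genes and 37.7%, 38.3% and 42.1% elsewhere. The difference of -4.53 ± 3.71 percentage points was negative in 3 of 3 replicates, and the two-sided exact sign-flip permutation test gave p = 0.25, which is the smallest value that 3 replicates allow. The sign was not stable. With an overlap of at least 50% it was 4.19, 0.562 and 7.17 percentage points at the same matching (mean 3.97 ± 3.31, exact p = 0.25), and without clusters at 10 times or more it was 0.366. Matched on coverage per C base the difference was 5.60, -5.17 and 1.02 percentage points (mean 0.483 ± 5.40, exact p = 0.75). At matched deposited depth, the difference without replicate 1 was 2.20 percentage points, with fewer replicates that had to match.

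The median edit fraction of exonic clusters was 1.24%, 0.658% and 0.716% in ribosomal protein genes (mean 0.871% ± 0.319) and 1.61%, 1.63% and 1.79% elsewhere (mean 1.68% ± 0.0972). At matched deposited depth, ribosomal protein genes minus others gave 0.359, -0.0118 and 0.0412 percentage points (mean 0.13 ± 0.20, two-sided exact sign-flip permutation p = 0.5). Matched on coverage per C base, the values were -0.109, -0.162 and -0.0233 (mean -0.0981 ± 0.0698, exact p = 0.25). Neither difference could pass a threshold of 0.05 with 3 replicates. Without replicate 1 the mean at matched deposited depth was 0.0147 percentage points.

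By class of coverage per C base, the medians of both sets followed each other down the classes, as the plot of edit fraction by coverage shows. The filter asks for stronger editing where reads are few, so a fall of this kind is built into both sets. Below 10 reads the mean of the replicate medians was 4.50% ± 0.335 in ribosomal protein genes and 4.94% elsewhere, and at 10 to 20 reads 2.11% ± 0.252 and 2.23%. At 20 to 30 reads it was 1.87% ± 0.255 and 1.61%, and at 50 to 100 reads 0.873% ± 0.137 and 0.873%. The ribosomal protein median was the lower in 3 of 3 replicates below 10 reads and the higher in 3 of 3 at 20 to 30 reads, while in the other classes just given replicates fell on both sides. At 500 reads or more the medians were 0.343%, 0.348% and 0.371% in ribosomal protein genes and 0.416%, 0.429% and 0.430% elsewhere. There the difference of -0.0713 ± 0.0114 percentage points was negative in 3 of 3 replicates (exact sign-flip permutation p = 0.25). Within this open class, ribosomal protein clusters were again deeper, with a median coverage of 2195 ± 215 against 764 ± 16.6 reads per C base.

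**Figure D4:**
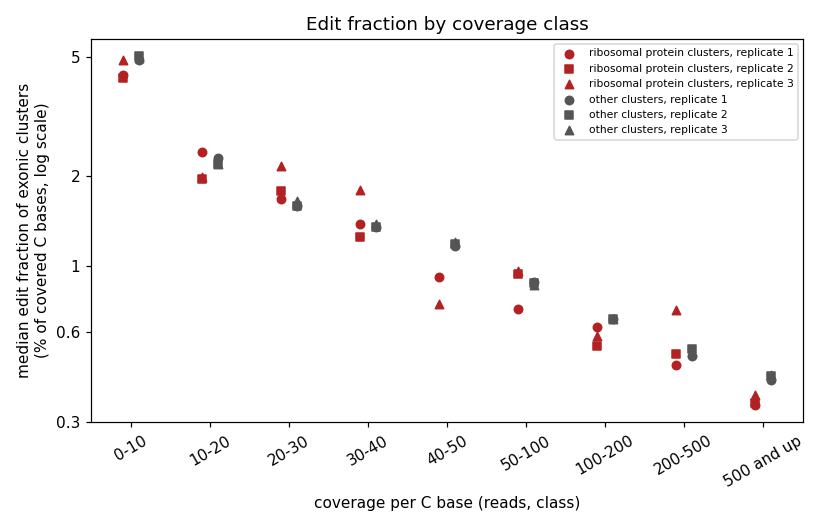
Median edit fraction of exonic clusters (percent of covered C bases, log scale) in each class of coverage per C base (reads), for ribosomal protein genes in red and all other genes in grey, with a symbol for each of 3 replicates. Both fall from near 5% under 10 reads to below 0.5% at 500 reads or more, and the scatter of the red points reflects classes with as few as 1 cluster; replicate 2 has no red point at 40 to 50 reads.

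Ribosomal protein genes made up a large part of the best covered clusters. Among exonic clusters with at least 500 reads per C base they were 30 of 179 in replicate 1 (16.8%; Wilson 95% interval, 12.0 to 22.9), 43 of 175 in replicate 2 (24.6%; 18.8 to 31.5) and 38 of 135 in replicate 3 (28.1%; 21.2 to 36.3). These clusters came from 16, 23 and 21 genes. Of them, 83.3%, 62.8% and 71.1% were found in all replicates, beside 66.4%, 70.5% and 67.0% of the others in this class, an overlapping range.

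Without matching on coverage, in which the sets differ, edited reads of ribosomal protein clusters carried fewer edited bases. Summed over exonic clusters, there were 1.30, 1.33 and 1.34 edited bases per edited read in ribosomal protein genes (mean 1.32 ± 0.0183) and 1.63, 1.69 and 1.69 elsewhere (mean 1.67 ± 0.0363). The ranges do not overlap. Exonic clusters had the same median length of 45 bases in both sets, with a median of 8 and 9 C bases. Among loci found in all replicates at a mean depth of at least 50, the mean edit fraction had a median of 0.457% over 35 loci of ribosomal protein genes (0.230% to 2.38%) and 0.790% over 799 other loci (0.259% to 14.4%).

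Other genes of the translation apparatus give a scale for these values. A list of 5 symbols of cytosolic ribosome components outside the symbol choice, FAU, GNB2L1, RACK1 and RPL36AL among them, had clusters under 4 names. There were just 5, 9 and 8 clusters, at a median coverage of 17.5 ± 2.38 reads per C base. The pooled edit fraction was 1.45% ± 0.261, and 81.8% ± 5.09 of clusters had a depth of at least 10 times coverage. GNB2L1, the older symbol of RACK1, held 4, 7 and 7 of the clusters. It also held 17, 17 and 22 of the 22, 25 and 25 edited bases. Of the 4 names it alone was present in all replicates, and the values of the list are mostly its own. Of 9 symbols listed as translation elongation factors 7 had a cluster, at a pooled edit fraction of 0.559%, 0.397% and 0.610% (mean 0.522% ± 0.111). Found in all replicates were 2 of them, EIF5A and EEF1E1, of which the latter was listed by its symbol alone. EIF5A held 28, 68 and 25 of the 53, 102 and 46 edited bases of the list. Symbols of initiation factors and PABPC1 and PABPC4 had 124, 137 and 98 clusters under 49 names, and 28 names had one in all replicates. Their pooled edit fraction was 0.726% ± 0.0336, and 23.4% ± 2.78 of their clusters were found in all replicates. The names include pseudogenes, the EIF2AK kinases and proteins that bind eIF4E, 11 in all. The other 38, 21 of them in all replicates, had 0.686% ± 0.0389. EIF4A2, an RNA helicase, led with 172, 162 and 100 edited bases, ahead of EIF1 with 77, 174 and 97.

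With the elongation factors, other transcripts with a TOP tract, which include the noncoding small nucleolar RNA hosts GAS5 and SNHG1, had the pooled edit fractions nearest to those of the ribosomal protein genes. All 11 had a cluster, 6 of them in all replicates, with a pooled edit fraction of 0.533%, 0.573% and 0.471% (mean 0.526% ± 0.0512), and 40.7% ± 11.9 of their clusters were found in all replicates. NPM1, a nucleolar chaperone, had 387, 319 and 262 edited bases, and TPT1 had 237, 266 and 200. The lists share EEF1A1, EEF2 and PABPC1. The lowest of the TOP values lay just above the highest of the ribosomal protein genes, 0.469%. The TOP list also had the highest median coverage of these lists, 439 ± 229 reads per C base, beside 108 ± 81.7 in ribosomal protein genes. Edit fraction falls with coverage, and the lists were not matched on it. The elongation list, at 24.6 ± 21.6 reads per C base, lay below the ribosomal protein genes in replicate 2 and above them in replicates 1 and 3.

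Symbols of mitochondrial ribosomal proteins had clusters under 57 names, 27 of them in all replicates, led by MRPS21 with 34, 25 and 24 edited bases. Their pooled edit fraction was 0.935%, 0.889% and 0.988% (mean 0.937% ± 0.0497). In each replicate it was somewhat below that of all clusters outside the cytosolic ribosomal protein genes, 0.986%, 0.994% and 1.07%. The mitochondrial list had a median coverage of 51.6 ± 11.6 reads per C base. A depth of at least 10 times coverage was found in 0.844% ± 1.46 of its clusters. The names include the pseudogenes MRPS31P5, MRPS31P4 and MRPL45P2, and the other 54, 26 of them in all replicates, had 0.916% ± 0.0338. Pseudogenes of cytosolic ribosomal protein genes had clusters under 45 names, 11 of them in all replicates, at 1.85% ± 0.535. How reads that also match a parent gene were assigned to them is not given in the sources used here. RPL12P4 had 33, 23 and 17 edited bases at 11.1% in each replicate, and RPL41P1 had 25, 27 and 48 at 2.82%, 3.26% and 4.67%. The reason for the equal edit fractions of RPL12P4 was not tested.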

How the data were processed

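The data are C-to-U edits in 1 condition with 3 biological replicates. The authors called edits and then used FLARE, which tests 30-base windows against rates set apart for exons, introns and depth classes. Windows with an adjusted p-value up to 0.1 were kept and joined within 15 bases. The submitters' processing notes name the aligner STAR (version not given in the sources used here) and the build hg19. Replicates were not pooled. Coordinates are 1-based, given as chromosome and range.

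Deposited counts (edited bases, C bases and how often these were covered, edited reads, reads) are unscaled whole numbers per cluster. The deposited edit fraction is edited over covered C bases. The deposited mean depth is a coverage signal without scaling. The score, also from the authors, runs from 0 to 1 and was used as a filter in alternatives alone. Reads over clusters numbered 1637592, 1731304 and 1104249 and are not library depths.

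Counts, shares and medians per replicate were computed with pandas 2.3.3, NumPy 2.4.6 and SciPy 1.17.1 in Python 3.11.15 and drawn with matplotlib 3.10.9, with mean and SD over 3 replicates. Matching used classes of depth with edges at 10, 20, 30, 40, 50, 100, 200 and 500, in which the medians or shares of other clusters were weighted by the ribosomal protein clusters of the class. Differences were tested over replicates with two-sided exact sign-flip permutation tests. Named were the 25 genes with the most edited bases among those with a cluster in every replicate. Loci named were the 10 with the highest edit fraction and the 10 with the most edited bases, among those found in every replicate at a mean depth of at least 50. Genes with an intronic cluster, paralogs and genes without a cluster were also named, and at most 5 genes of each further list. The members, lists and tests were chosen with earlier results of these data known. The overlap search equalled a brute-force search for 100% of 500 clusters drawn at random from the data. Some genes and loci that these rules select are not reported here.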

Additional observations from a re-analysis of the deposited data

How the results depend on the processing

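A set of 8 results was recomputed under the alternatives, and the edit fractions of 18 named loci without each replicate. At a minimum score of 0.99 there were 75.3 clusters per replicate and 20 genes with a cluster in every replicate. The mean edit fraction over exonic clusters was 1.76%. The share of clusters was 0.912% at that score, 2.54% at a depth of at least 50, 1.02% with at least 2 edited reads and 0.808% without RPL3L, RPL7L1, RPL10L, RPL22L1, RPL26L1 and RPL39L. Chosen after seeing the data, the first listed gene name gave 0.800% and a depth under 10 times coverage 0.704%. The share found in all replicates was 39.3% with at least 2 edited reads and 40.1% at a depth under 10 times coverage. The difference in edit fraction reversed at a depth of at least 50 without matching, to -0.206 percentage points (exact sign-flip permutation p = 0.25), and matched on coverage per C base, to -0.0981. The difference in the share found in all replicates reversed to 16.4 percentage points at a depth of at least 50 without matching, 3.97 with an overlap of at least 50%, 0.483 matched on coverage per C base and 0.366 at a depth under 10 times coverage. The cause was not tested.

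Leaving out each replicate gave 110.5 to 130 clusters, 44.5 to 48.5 genes, 33 to 38 genes in every remaining replicate, a median of 0.687% to 0.977% and a share of clusters of 0.861% to 0.882%. The share found in the remaining replicate was 38.6% to 50.6%, which is higher because fewer replicates must match. The differences ran from 0.0147 to 0.200 percentage points in edit fraction and from -5.96 to 2.20 in the share found. Without a replicate, the mean of 3 values moves by less than 1 SD whatever they are, so the loci show nothing on stability. With 1 group there is no pairing between groups, and all differences were taken within replicates. Depth limits clusters with 1 edited read, 15.6% ± 7.51 of the exonic clusters of ribosomal protein genes and 30.6% ± 2.73 of others, and windows that did not pass the filter cannot be counted.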
